A study of Mus musculus with 2 samples.

Results

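Of 9 genes of the type I interferon response, 7 could be measured in the cerebrum of laggard (lag) mutant and wild-type mice at postnatal day 14 (P14). Ifit3, Bst2, Irf7, Ifitm3 and Irf9 had higher signals in the lag mutant, by 1.38-fold to 1.94-fold, while Ifit2 and Stat2 were nearly level (-3.97% and -1.75%). The 9 genes were Ifitm3, Ifit1, Ifit2, Ifit3, Irf7, Irf9, Stat2, Isg15 and Bst2. They were chosen from the signals of these same arrays, so their values are given as a description, with no test. A probe set, the group of short probes that reads a transcript, was used only where the platform annotation paired it with 1 gene alone. That left 8 of the 9 genes, of 18194 genes with such a probe set in all. The signal of Isg15, whose probe set was also paired with Gm9706, was not analysed here, and only its promoter was.

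The lag mutant carries a recessive splice site mutation of Kif14, a motor protein gene needed to finish cell division, and mutant mice have a small, poorly myelinated brain. The line arose in a cross of 129/SVJ, C57BL/6N and DBA/2N mice and was backcrossed to C57BL/6J, and the design text sets each mutant against a littermate. Total cerebral RNA of 1 lag mutant sample and 1 wild-type sample was read on Affymetrix expression arrays. How many animals stand behind a sample is not stated in the sources. Each genotype thus has a single value per probe set, the variation among animals cannot be estimated, and no test across samples was made.

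The signals are linear MAS5 intensities, scaled per array by the authors, with a median of 98.3 on the lag mutant array and 105 on the wild-type array. A signal was taken as above background where it passed 49.2, the higher of both arrays' 95th percentiles over 129 probe sets of olfactory, vomeronasal and taste receptors and hair keratin-associated proteins. By this level 13892 genes were measured on at least 1 array, with a median log2 ratio of 0.01, lag mutant over wild-type. Kif14 had a signal of 0.733 in the lag mutant and 6.85 in the wild-type, both under background, so its signal does not check the labels. All 8 measured neuron markers of the cerebrum, among them Snap25 and Neurod6, lay above background on both arrays. For Actb, the control probe set at the 3′ end gave 1.38 times the signal of the 5′ one in the lag mutant and 1.55 times in the wild-type, a guide to RNA degradation.

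Type I interferons are secreted when a cell senses foreign or misplaced nucleic acid. They bind the receptor of IFNAR1 and IFNAR2, and the kinases JAK1 and TYK2 then phosphorylate STAT2. With IRF9 it forms part of the complex ISGF3, which binds the interferon-stimulated response element (ISRE) in promoters of antiviral genes. In the brain the response is best known from viral infection and from inherited interferonopathies, and glial cells and vessels express many of its genes.

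Of the listed transcription factors of the response, Irf7 and Irf9 had higher signals in the lag mutant and Stat2 was nearly level. Irf7, which drives interferon production and its amplification, had a signal of 114 in the lag mutant and 68.0 in the wild-type, a log2 ratio of 0.75 (1.68-fold). Irf9, the DNA-binding subunit of ISGF3, had 241 in the lag mutant and 175 in the wild-type, 1.38-fold higher and the smallest difference of the 5 genes with a higher signal. Stat2, its partner in the complex, is the only listed gene with more than 1 probe set of its own, and both sets were nearly level. The brighter set gave 133 in the lag mutant and 135 in the wild-type, and the other 107 in the lag mutant and 111 in the wild-type. The 2 sets therefore gave log2 ratios of -0.03 and -0.06, and quantile normalization turned the ratio of the gene to 0.07.

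The IFIT genes, neighbours on chromosome 19 that encode RNA-binding antiviral proteins with tetratricopeptide repeats, also differed among themselves. Ifit3 had a signal of 160 in the lag mutant and 82.4 in the wild-type. Its log2 ratio of 0.96 (1.94-fold) was the largest of the 7, and 0.885% of measured genes had a larger one. Ifit2 had 354 in the lag mutant and 369 in the wild-type, a log2 ratio of -0.06. Ifit1, which recognises RNA without a host-type cap, had 33.6 in the lag mutant and 25.1 in the wild-type, both under background, so no fold is given. The probes of Ifit3 may also read Ifit3b, a close copy that had no probe set of its own, and the signals cannot separate them.

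Both membrane proteins on the list had higher signals in the lag mutant. Ifitm3, which blocks the entry of viruses at endosomes, was the brightest listed gene, with 1120 in the lag mutant and 697 in the wild-type (log2 ratio 0.69, 1.61-fold). Bst2, or tetherin, which holds budding virions at the cell surface, had 231 in the lag mutant and 136 in the wild-type (log2 ratio 0.77, 1.70-fold). Of the 13892 measured genes, 278 had a larger ratio than Bst2, 290 than Irf7, 382 than Ifitm3 and 961 than Irf9.

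**Figure D1:**
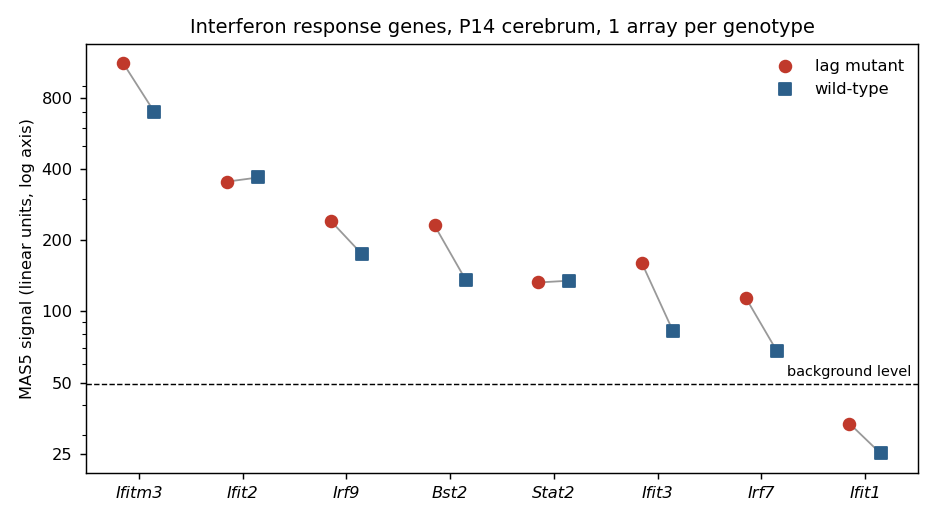
MAS5 signal (log axis) of the 8 genes with a probe set of their own, in order of mean signal, with the lag mutant as circles and the wild-type as squares, 1 array each; the dashed line is the background level of 49.2, and signals of different probe sets are not on a common scale. The wild-type mark lies below the lag mutant mark for Ifitm3, Irf9, Bst2, Ifit3 and Irf7, nearly level with it for Ifit2 and Stat2, and Ifit1 lies under background on both arrays.

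In numbers, 5 of the 7 measured genes had a higher signal in the lag mutant, against 52.0% of all measured genes, and 2 a lower one, against 48.0%. Where each gene took its probe set of lowest ratio, 39.2% of all measured genes were higher. Differences of at least 1.5-fold upward were found in 4 of the 7, against 4.26% of all measured genes, and 0 of the 7 were at least 1.5-fold lower, against 3.53%. No listed gene reached 2-fold in either direction, against 0.749% of measured genes at least 2-fold higher and 1.02% at least 2-fold lower. The median log2 ratio of the 7 was 0.69. Because the genes were chosen from this comparison, these shares describe the list and nothing is read from them.

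How often other genes differed as much depended on brightness. Ifitm3 had a mean signal of 908, and of 5457 genes with a mean signal of 800 and over, 1.21% were at least 1.5-fold higher. Ifit3 and Bst2 fell in the range of 100 to 200, where 8.92% of 1682 genes were at least 1.5-fold higher. For Irf7, with a mean signal of 91.1, the share was 11.2% of the 2098 genes under 100. Large ratios were thus commoner among genes as dim as Irf7, Ifit3 and Bst2 than among those as bright as Ifitm3. A further view of precision came from 6578 genes with several probe sets above background, whose log2 ratios had a median SD of 0.20 within a gene. That SD was 0.50 at the 90th percentile, and it covers probe differences on the same arrays, not differences between mice.

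**Figure D2:**
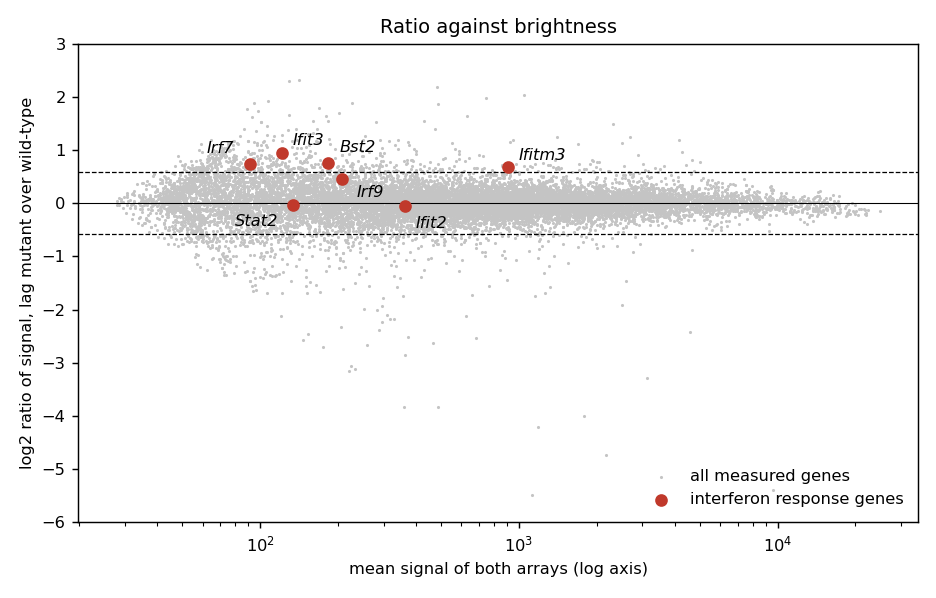
Difference between arrays, as log2 of lag mutant over wild-type signal, against the mean of both (log axis) for 13892 measured genes (grey) and the 7 measured interferon response genes (red, named); dashed lines mark 1.5-fold. Ifit3, Bst2, Irf7 and Ifitm3 lie above the upper dashed line, Irf9 under it, and Ifit2 and Stat2 at 0, and the grey cloud is wider at low signal.

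The promoters were compared for the letters of the ISRE. Because the genes were picked as interferon response genes, matches to this element are a description and no independent evidence. RefSeq windows from 250 bases before to 50 bases after each annotated start (GRCm38.p6) were found for all 9 genes, 11 windows in all since Ifit2 and Irf9 have several starts. The core of the ISRE was searched on both strands as GAAA, any 2 bases and GAAA again, and occurred in 3.44% of all 32851 windows. It was found in 6 of the 9 genes, namely Ifit1, Ifit3, Ifitm3, Bst2, Stat2 and Isg15. No match lay in the windows of Ifit2, Irf7 and Irf9, which says only that these letters were not in those windows. The promoter stretches below show the matches in capitals, 5′ to 3′ on the strand of the gene, and Ifit2 is shown as the unmatched neighbour of Ifit1 and Ifit3.
Ifit3 (chr19:34583353-34583436, plus strand): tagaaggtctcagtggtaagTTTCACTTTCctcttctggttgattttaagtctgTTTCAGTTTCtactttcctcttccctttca
Ifit1 (chr19:34640765-34640833, plus strand): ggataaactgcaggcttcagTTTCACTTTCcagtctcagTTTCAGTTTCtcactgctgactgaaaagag
Ifit2 (chr19:34550574-34550693, plus strand): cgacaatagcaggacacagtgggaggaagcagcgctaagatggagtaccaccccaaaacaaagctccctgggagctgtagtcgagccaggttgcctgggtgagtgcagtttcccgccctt
Bst2 (chr8:71537567-71537622, minus strand): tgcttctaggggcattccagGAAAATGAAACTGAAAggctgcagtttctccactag
Stat2 (chr10:128270256-128270305, plus strand): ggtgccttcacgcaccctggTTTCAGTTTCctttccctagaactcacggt
Ifitm3 (chr7:141010716-141010742, minus strand): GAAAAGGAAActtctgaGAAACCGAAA

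In Ifit3 and Ifit1 the same 2 words recurred in the same order, both on the opposite strand, beginning 156 and 122 bases before the start in Ifit3 and 104 and 85 bases before it in Ifit1. The 2 matches of Bst2 overlapped, beginning 130 and 124 bases before the start. In Ifitm3 they lay just past the start, at bases 3 and 20 of the transcript, so only the matched stretch is shown. The single match of Stat2 lay 222 bases before the start. A second element, the interferon-gamma activated site (GAS), was searched as TTCNNNGAA on both strands and occurred in 8.30% of all windows. It was found in Bst2 and Ifitm3, where it overlapped an ISRE match, and in Ifit2, 241 bases before 1 of its starts. A match of letters is not evidence of binding, and factor binding was not measured.

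Set beside the signals, 3 of the 4 listed genes at least 1.5-fold higher in the lag mutant held the ISRE letters, all but Irf7. Of the 3 other measured genes 1 held them, Stat2. Since the genes were chosen by these signals, nothing is read from these counts. Among other pathway genes that were above background and had a window, 5 of 19 that were at least 1.5-fold higher held the letters, as did 19 of the 58 that were not. Over all 27025 genes with a window the share was 3.99%.

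**Figure D3:**
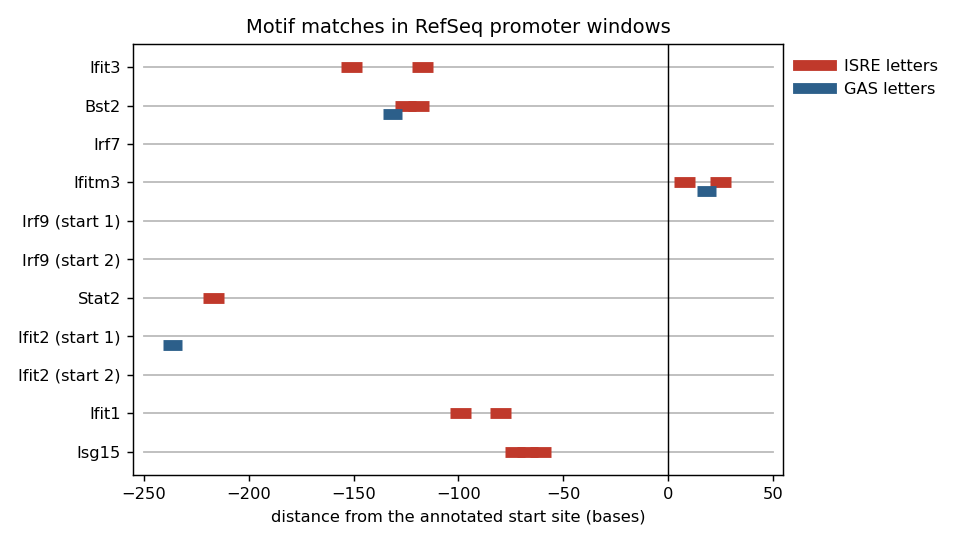
Positions of ISRE letters (red) and GAS letters (blue) in the 11 promoter windows of the 9 genes, in bases from the annotated start (vertical line), ordered by log2 ratio with the unmeasured Ifit1 and Isg15 last. ISRE matches lie 66 to 222 bases before the start except in Ifitm3, where they lie just past it, and Ifit2, Irf7 and Irf9 have none.

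Other genes of the pathway were grouped into 13 lists by role, without the 9 genes, and 94 of them were measured. Of these, 71 had a higher signal in the lag mutant (75.5%, against 52.0% of all measured genes) and 23 a lower one. At least 1.5-fold differences were upward in 23 (24.5%, against 4.26%) and downward in 4 (against 3.53%). At 2-fold, 8 were higher (against 0.749% of all measured genes) and 2 lower (against 1.02%). The median log2 ratio was 0.19, against 0.01 for all measured genes. Most of the 23 had a mean signal under 200, where large upward ratios were commoner among all measured genes too. At least 1.5-fold higher were 8.92% of genes at 100 to 200 and 11.2% of those under 100. The shares over all measured genes also stand beside the counts of each list below. The lists were drawn up with results of these arrays known, so they are no independent evidence of a direction.

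Ligands were not detected. All 9 type I interferon genes with a probe set of their own lay under background on both arrays, Ifnb1 with 44.4 in the lag mutant and 30.3 in the wild-type, and so did Ifng. The receptor and its signalling chain differed little, with 6 of 8 genes higher, 2 lower and none past 1.5-fold (median 0.09). Ifnar1 had 485 in the lag mutant and 428 in the wild-type, Ifnar2 had 412 in the lag mutant and 339 in the wild-type, and Jak1 had 2548 in the lag mutant and 2524 in the wild-type. The receptor genes had further probe sets near level or in the other direction, such as 85.5 in the lag mutant and 106 in the wild-type for Ifnar1. Jak2, a kinase of the interferon-gamma receptor, had 714 in the lag mutant and 884 in the wild-type, while Ifngr2 was 1.07-fold higher and Stat3 1.01-fold lower by their brightest sets. A dimmer set of Stat3 gave 62.5 in the lag mutant and 156 in the wild-type.

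Among the other interferon regulatory factors, 2 of 5 were higher and 3 lower (median -0.04, and 0.03 after quantile normalization). Irf8, a factor of the myeloid lineage that microglia require, was the only gene past 1.5-fold, with 143 in the lag mutant and 92.8 in the wild-type. Its other set gave 114 in the lag mutant and 81.9 in the wild-type, and 0 genes of the list passed 1.5-fold with the mean over probe sets or the set of lowest ratio. Irf1 had 267 in the lag mutant and 188 in the wild-type, and Irf3, the constitutive factor behind early interferon induction, had 447 in the lag mutant and 458 in the wild-type. Irf2 and Irf5 had slightly lower signals in the lag mutant.

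Of 10 measured sensors of nucleic acids and their adaptors, 9 were higher and 1 lower (median 0.19). Tlr3, an endosomal sensor of double-stranded RNA, had 178 in the lag mutant and 115 in the wild-type. The adaptor gene Ticam1, which relays its signal, had 64.0 in the lag mutant and 97.4 in the wild-type, 1.52-fold lower. Mavs, the mitochondrial adaptor of RNA sensing, was 2.66-fold higher by its brighter probe set, with 241 in the lag mutant and 90.7 in the wild-type, while the other set gave 147 in the lag mutant and 142 in the wild-type. The call for Mavs thus depends on the probe set. Tbk1, Ddx58 and Myd88 differed by 1.15-fold or less.

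The antiviral effectors were the longest list, and 24 of 29 measured genes were higher in the lag mutant and 5 lower (median 0.38). Of the 29, 10 were at least 1.5-fold higher (against 4.26% of all measured genes) and 2 at least 1.5-fold lower (against 3.53%). A further 14 genes, among them Mx1 and Mx2, lay under background on both arrays. Rtp4, an interferon-induced chaperone of receptors, had 230 in the lag mutant and 91.2 in the wild-type (2.52-fold). Ifi27l2a had 184 in the lag mutant and 81.2 in the wild-type (2.27-fold). Oas1a, an oligoadenylate synthetase that activates RNase L, had 210 in the lag mutant and 98.6 in the wild-type (2.13-fold). All 3 are classical interferon-stimulated genes. Lgals3bp, a secreted glycoprotein, had 261 in the lag mutant and 128 in the wild-type (2.04-fold). Oasl2, a relative of Oas1a, was at least 2.24-fold higher, with a wild-type signal of 44.6, under background.

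The 4 effectors of highest mean signal, Ly6e, Cmpk2, Pnpt1 and Daxx, differed by less than 1.5-fold by their brightest sets. Cmpk2, a mitochondrial nucleotide kinase, was 1.32-fold higher, with 955 in the lag mutant and 723 in the wild-type, and Daxx was 1.25-fold higher. Of these, Ly6e and Pnpt1 were within 1.06-fold. So was the dimmer Rsad2, or viperin, by its brightest set, with 98.9 in the lag mutant and 97.0 in the wild-type. A dimmer set of Ly6e gave 62.0 in the lag mutant and 135 in the wild-type. Xaf1, a pro-apoptotic interferon target, had probe sets that opposed each other. Its brighter set gave 27.5 in the lag mutant and 214 in the wild-type, at least 4.35-fold lower, and the other 129 in the lag mutant and 18.7 in the wild-type.

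Close relatives of the listed genes were mixed, 3 of 5 measured IFIT and IFITM genes being higher (median 0.22). Ifitm2, which adjoins Ifitm3 and resembles it in sequence, had 659 in the lag mutant and 415 in the wild-type, 1.59-fold higher. Whether its probes and those of Ifitm3 read each other's transcripts was not tested, so they may not be separate measurements. Ifitm1 was 1.16-fold and Ifit1bl1 1.29-fold higher, and Ifitm10 had 128 in the lag mutant and 141 in the wild-type. Genes that attach ISG15 to proteins or remove it were higher in 4 of 6 (median 0.08). Uba7, its activating enzyme, had 106 in the lag mutant and 65.8 in the wild-type, but its other probe set above background on both arrays gave 72.2 in the lag mutant and 78.9 in the wild-type. Usp18, the protease that removes it and damps the receptor, had 83.5 in the lag mutant and 51.4 in the wild-type. Trim25, a ubiquitin ligase, was 1.55-fold lower, with 192 in the lag mutant and 298 in the wild-type, while another set gave 192 in the lag mutant and 216 in the wild-type. The calls for Uba7 and Trim25 thus depend on the probe set. The ligase gene Herc3 was 1.08-fold higher.

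Of 9 measured interferon-inducible GTPases, which attack membranes of intracellular pathogens, 6 were higher and 3 lower (median 0.14). Igtp, with 193 in the lag mutant and 84.9 in the wild-type (2.27-fold), was the only gene at least 1.5-fold higher, against 3 genes under quantile normalization and 0 at a background level of the 99th percentile, while Irgm1 was 1.45-fold higher. Gbp3 had 159 in the lag mutant and 151 in the wild-type, and Gbp7 had 290 in the lag mutant and 301 in the wild-type. Of 10 measured negative regulators, 8 were higher and 2 lower (median 0.10). Socs3, a feedback inhibitor of JAK kinases, was 3.11-fold higher by its brightest probe set, with 272 in the lag mutant and 87.7 in the wild-type. Its other sets gave 177 and 63.2 in the lag mutant against 119 and 57.9 in the wild-type, so the size of its difference depends on the set. Ptpn2, Rnaseh2c, Adar and Pias1 were within 1.14-fold by their brightest sets. Dimmer sets differed more, with 80.8 in the lag mutant and 206 in the wild-type for Adar, and 780 in the lag mutant and 546 in the wild-type for Pias1.

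Antigen presentation by MHC class I, an interferon target, was higher in 7 of 10 measured genes and lower in 3 (median 0.22). B2m, its light chain, had 3290 in the lag mutant and 2237 in the wild-type (1.47-fold), and both of its probe sets were higher. The immunoproteasome subunit genes Psmb8 (1.84-fold) and Psmb9 (1.83-fold) and the peptide transporter gene Tap1 (1.53-fold) were past 1.5-fold. The heavy chain genes H2-D1 and H2-K1 were 1.15-fold and 1.18-fold higher, and since probes may not tell such related genes apart their values are uncertain. Psmb10 was 1.09-fold higher. Of the interferon-induced chemokines, 3 of 7 were measured and all 3 were higher (median 0.31). Ccl12 had 182 in the lag mutant and 104 in the wild-type, Ccl2 was at least 1.24-fold and Cxcl11 at least 1.07-fold higher, and Cxcl10 lay under background on both arrays.

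**Figure D4:**
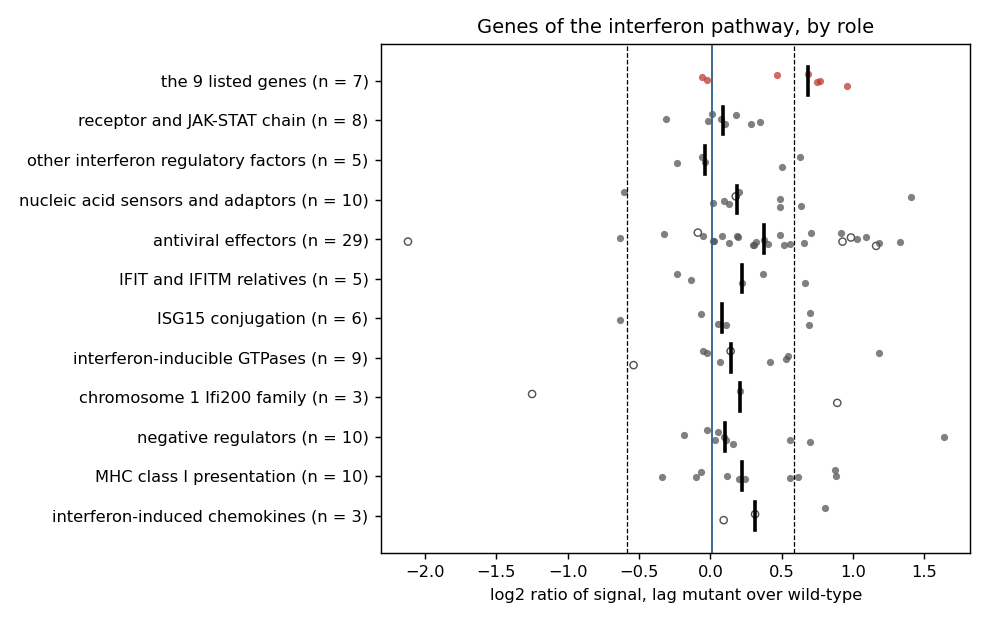
Measured genes of the interferon pathway by role, on a log2 scale of lag mutant over wild-type signal; each point is a gene, open where 1 of its signals was raised to background so that the ratio is a bound, black bars are medians, the blue line is the median of all measured genes, 0.01, and dashed lines mark 1.5-fold. The 9 listed genes, 7 of them measured, have a median of 0.69, the antiviral effectors one of 0.38 and the receptor chain one of 0.09.

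In whole tissue, more cells of a type and more RNA per cell cannot be told apart, so cell type markers are given beside the interferon genes. Of 18 measured microglia markers, 15 were higher in the lag mutant and 3 lower, with a median log2 ratio of 0.42. Of all measured genes 52.0% were higher, a share that stands beside the marker counts below as well. Their summed signal was 15655 in the lag mutant and 12409 in the wild-type, 1.26-fold higher, and Itgam lay under background on both arrays. Ctss, a lysosomal protease, had 2530 in the lag mutant and 1484 in the wild-type, and C1qa, a complement component, had 1370 in the lag mutant and 1018 in the wild-type. Csf1r, the growth factor receptor of microglia, had 4511 in the lag mutant and 4170 in the wild-type. P2ry12, which marks resting microglia, had 716 in the lag mutant and 750 in the wild-type, and Tmem119, another such marker, had 282 in the lag mutant and 254 in the wild-type. The part of these cells in the interferon values was not tested.

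Other cell types differed in direction. All 8 measured markers of perivascular and infiltrating myeloid cells were higher, summing to 1684 in the lag mutant and 1317 in the wild-type, with Mrc1, Pf4 and Lyve1 the brightest, and Ccr2 and Itgax under background. Markers of mural cells and meningeal fibroblasts were higher in 11 of 15 (summed signal 27078 in the lag mutant and 22308 in the wild-type, median 0.25). Lower by their brightest sets were Tagln, Cspg4, Acta2 and Rgs5, listed as mural markers, while Pdgfrb and Vtn, also listed as mural, were higher. Whether the signals of these genes came from mural cells was not tested. Tagln had 84.4 in the lag mutant and 192 in the wild-type, and Cspg4 168 in the lag mutant and 344 in the wild-type. The fibroblast markers were all higher by their brightest sets. Endothelial markers were lower in 8 of 12, summing to 7014 in the lag mutant and 7595 in the wild-type (median -0.16). Astrocyte markers were lower in 7 of 10 (median -0.19). Choroid plexus markers were higher in 5 of 8 (median 0.40), but their summed signal, most of it from Ttr, was 22782 in the lag mutant and 24222 in the wild-type. The median was 0.21 for the 8 cerebrum neuron markers.

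Most markers of blood cells were dim by the probe sets used here. Of 10 lymphocyte markers, only Cd8a lay above background, with 87.5 in the lag mutant and 64.2 in the wild-type by its brightest set. All its other probe sets lay under background on both arrays, so its detection depends on the set. Neutrophil markers were higher in 1 of 4 and lower in 3, with S100a8 at 49.3 in the lag mutant and 98.1 in the wild-type. Of 8 listed erythrocyte markers, 5 had a probe set of their own and 3 were above background, 1 higher and 2 lower. Probe sets paired with more than 1 globin gene would not have been used, so these values do not measure the amount of blood RNA. The parts of blood cells in the interferon values were not tested either.

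**Figure D5:**
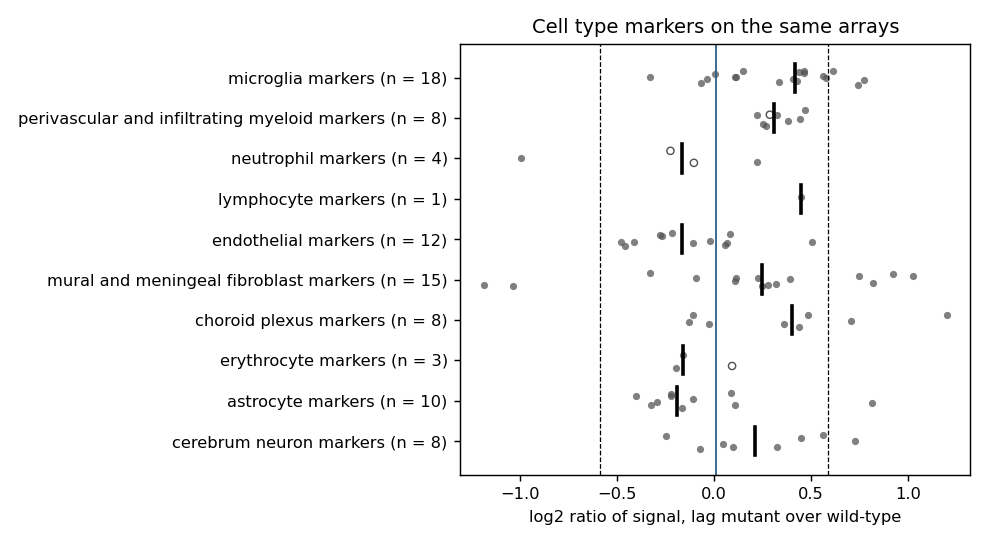
Measured markers of cell types the cerebrum sample could hold, on a log2 scale of lag mutant over wild-type signal, drawn as in the plot of pathway genes by role. Medians lie at 0.42 for microglia and 0.31 for perivascular and infiltrating myeloid cells, and at -0.16 for endothelium and -0.19 for astrocytes.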

How the data were processed

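Affymetrix mouse expression arrays of P14 cerebrum were analysed, 1 lag mutant and 1 wild-type. The deposited values are linear signal intensities without detection calls, which the authors calculated with Microarray Suite (MAS5, default settings, global scaling). Of 45101 probe sets, the platform annotation gave 34958 a single gene, 932 more than 1 gene and 9211 no gene. Only those with a single gene were named, and 34754 matched the RefSeq table of GRCm38.p6, which also gave current symbols. Where a gene had several probe sets, the brightest by its mean over both arrays stood for it. Signals under the background level were raised to it, so the fold is then a lower bound, and genes under it on both arrays got none. Ratios are lag mutant over wild-type.

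The members and the lists were chosen with earlier results of these data known. Genes named are all members, genes of each pathway list at least 2-fold different or among its 4 of highest mean signal, and the brightest cell type markers. Ifnar1, Ifnar2, Irf8, Tlr3, Ticam1, Ifnb1, Rsad2, Uba7, Usp18, Gbp2b, Psmb8, Psmb9, Tap1 and some markers were named after their values were seen. Calculations were tested on simulated data. Alternatives changed the probe set, the background level, the normalization and the centring. Python 3.11.15, numpy 2.4.6, pandas 2.3.3 and matplotlib 3.10.9 were used. The 2 arrays limit the precision.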

Additional observations from a re-analysis of the deposited data

How the results depend on the processing

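No paired analysis was possible because there is a single sample of either genotype. The background level had the most effect. At its 99th percentile, 156, 5 of the 9 genes were measured, 4 of them higher, 1 instead of 4 was at least 1.5-fold higher (Ifitm3), and the median log2 ratio was 0.47 instead of 0.69. The ratio of Ifit3 was then 0.04 instead of 0.96, since its wild-type signal was raised to the level. With no level, 6 genes were higher, and 12.2% of all genes were at least 1.5-fold higher instead of 4.26%. With probe sets whose names carry no suffix for shared or alternative targets, Irf7 and Irf9 had none and 3 of 5 genes were higher instead of 5 of 7. Under quantile normalization 1 gene instead of 0 was at least 2-fold higher, Ifit3 at 1.03, and Stat2 stood at 0.07 instead of -0.03. In the other 32 values of the main counts and median, counts stayed within 1.5 times and the median within 0.20, the median SD between probe sets of a gene. Ratios of Bst2, Ifitm3, Irf7 and Irf9 stayed above 0 and that of Ifit2 below 0 in every setting that gave them. Of the listed genes only Stat2 had several probe sets of its own. The mean over sets and the set of lowest ratio thus could not alter the ratios just named. Leaving out suffixed sets could only keep or drop them. A background level alters a ratio only where it exceeds a signal, as at the 99th percentile for Bst2 (0.57 instead of 0.77). Only quantile normalization and centring could change all of these ratios.
Of 196 counts and medians of pathway lists under these settings, 30 moved by more than these limits. Antiviral effectors at least 1.5-fold higher were 10, but 2 with the level at the 99th percentile and 19 with none. MHC class I genes at least 1.5-fold higher were 3, but 0 at the 99th percentile. The median of the receptor chain was 0.09, but -0.10 with the probe set of lowest ratio, which also moved the median of all genes to -0.07. Medians of antiviral effectors, MHC class I genes, sensors, GTPases, chemokines and negative regulators stayed above 0 in all settings. That of negative regulators was only 0.01 with the probe set of lowest ratio. The chemokine median at the 99th percentile, 0.23, was Ccl12 alone, with its wild-type signal raised to the level. The mean over sets and the set of lowest ratio could not alter genes with a single set. The positive medians of 3 other lists did not. That of ISG15 conjugation was -0.26 at the 99th percentile and -0.10 with the probe set of lowest ratio, that of IFIT and IFITM relatives -0.12 with no level, and that of the Ifi200 family -0.16 without suffixed probe sets. The single array per genotype limits all values.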

Other observations

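A further list held interferon-inducible genes of the Ifi200 family, DNA sensors and regulators encoded on chromosome 1, the chromosome of Kif14. Only 3 of 7 with a probe set of their own lay above background, and they did not share a direction. Ifi202b had a signal of 91.2 in the lag mutant and 5.07 in the wild-type, so it was at least 1.85-fold higher. Mndal had 8.05 in the lag mutant and 117 in the wild-type by its brighter probe set, and 0.517 in the lag mutant and 71.5 in the wild-type by the other, at least 2.38-fold lower by the brighter. The probe set paired with Ifi203 alone had 118 in the lag mutant and 102 in the wild-type. Sets are named here as the platform annotation pairs them, and annotations of this family of close relatives differ in the names they give the sets of Mndal and Ifi203. Among the interferon-inducible GTPases, Gbp2b also lay under background on 1 array only, with 2.80 in the lag mutant and 71.5 in the wild-type. None of the 9 listed genes lies on chromosome 1.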
